A study of Homo sapiens with 4 samples.

Results

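The genes of the tumor necrosis factor (TNF) ligand and receptor superfamily were followed in TPC1 cells between 6 h and 24 h of treatment with BLU6864. TPC1, an established line from a human papillary thyroid carcinoma, carries a CCDC6-RET rearrangement, and BLU6864 is a selective inhibitor of the RET kinase. Members were the protein-coding genes of the count table whose symbol begins with TNFSF or TNFRSF and a number, together with TNF, FAS, FASLG, CD40, LTBR, LTA, and LTB, which gave 40 genes of 20372. The rule used names and no measured value. All cells were grown in DMEM with 10% FBS and received BLU6864, and RNA was sequenced in 2 libraries after 6 h and in 2 libraries after 24 h. The comparison addresses which genes change while resistance to the inhibitor develops. The labels state a dose of 100 µM and the methods state 100 nM. The labels mark both 24 h libraries as a re-analysis, so that mark and the time point cannot be told apart. No vehicle library was among the 4 analysed here, so the values give a change between 2 times under the drug and not a response to it. All libraries came from 1 cell line, and no label says that the 2 libraries of a time point came from separate cultures, so the p-values measure only the spread between these libraries, which may be technical.

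Ligands of the superfamily are mostly trimeric membrane proteins that act on a neighboring cell or are cut from the surface, and their receptors gather in groups of matching size once the ligand binds. Receptors with a death domain, such as FAS, TNFR1, and the receptors for TRAIL, can recruit FADD or TRADD and start caspase-dependent death. Receptors without one bind TRAF adaptors and drive NF-kappaB and kinase signaling, and decoy receptors bind a ligand without passing on a death signal. In epithelial tumors TNFR1, the TRAIL receptors, LTBR, and FN14 are often made by the tumor cells themselves, whereas many other members belong to lymphocytes.

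Total counts were between 23917056 and 27457040 per library, and the 40 members together took between 0.162% and 0.175% of them. Over the 12876 genes with enough counts to be tested, Spearman's correlation was 0.998 or more between libraries of 1 time and no more than 0.941 across the times, a description over genes that share each library. The counts of the libraries of 1 time point differed beyond sampling noise (chi-square divided by its degrees of freedom 7.65 for 24 h, 10.0 for 6 h), so no library was counted as a copy of another. The thyroid gene PAX8 was read at 19124 to 22978 counts, KRT8 at 1720 to 1811, and neither was past the cutoffs. FOXE1 and KRT7 were higher at 24 h, with log2 fold changes of 0.84 and 0.84, while TG and KRT19 were lower, at -1.09 and -1.59, and NKX2-1 and TSHR were at 0 in every library, and the epithelial genes EPCAM and CDH1 had at most 11 counts. Of 12 leukocyte markers, CD2 and MS4A1 were among those at 0 and PTPRC (CD45) had at most 5 counts. The summed normalized count of these 12 genes was 70.2 and 64.3 at 6 h and 98.6 and 103 at 24 h, most of it from CD14, the only gene of the list past the cutoffs, which was higher at 24 h. Of 6 endothelial and stromal markers in the table, 4 were tested. KDR, VWF, and PDGFRB fell and LUM rose, beside 17.7% and 17.4% of all genes tested. VWF was near the floor, with 16 and 11 raw counts at 6 h and 3 and 5 at 24 h. It had enough counts to be tested only through its 6 h libraries, so its fall is conditional on that difference. Summed normalized counts of the 6 markers were 911 and 903 at 6 h and 230.1 and 224.8 at 24 h. The part of these markers in the results was not tested.

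Of the 40 members, 27 had enough counts to be tested and 13 did not. A gene was called if its absolute log2 fold change between the times exceeded 0.5 and its unadjusted P in edgeR's quasi-likelihood test was under 0.01. The methods state these sizes for genes that fell, and they were applied here in both directions. At 24 h, 7 members were higher, which was 25.9% of those tested against 17.4% of all genes tested. Another 6 members were lower, which was 22.2% against 17.7% of all genes. The remaining 14 were not called, because they missed the fold cutoff, the P cutoff, or both. Both 24 h libraries lay above both 6 h libraries in 9 members and below them in 13, against 41% and 40.8% of all genes. The median log2 fold change of the tested members was -0.07, beside 0.0029 for all genes tested, and the median absolute log2 fold change was 0.45 beside 0.37. Because a member tested through the time at which it is high had to differ, these shares are a description. In bulk RNA, fewer cells that express a gene and less RNA per cell cannot be told apart.

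**Figure D1:**
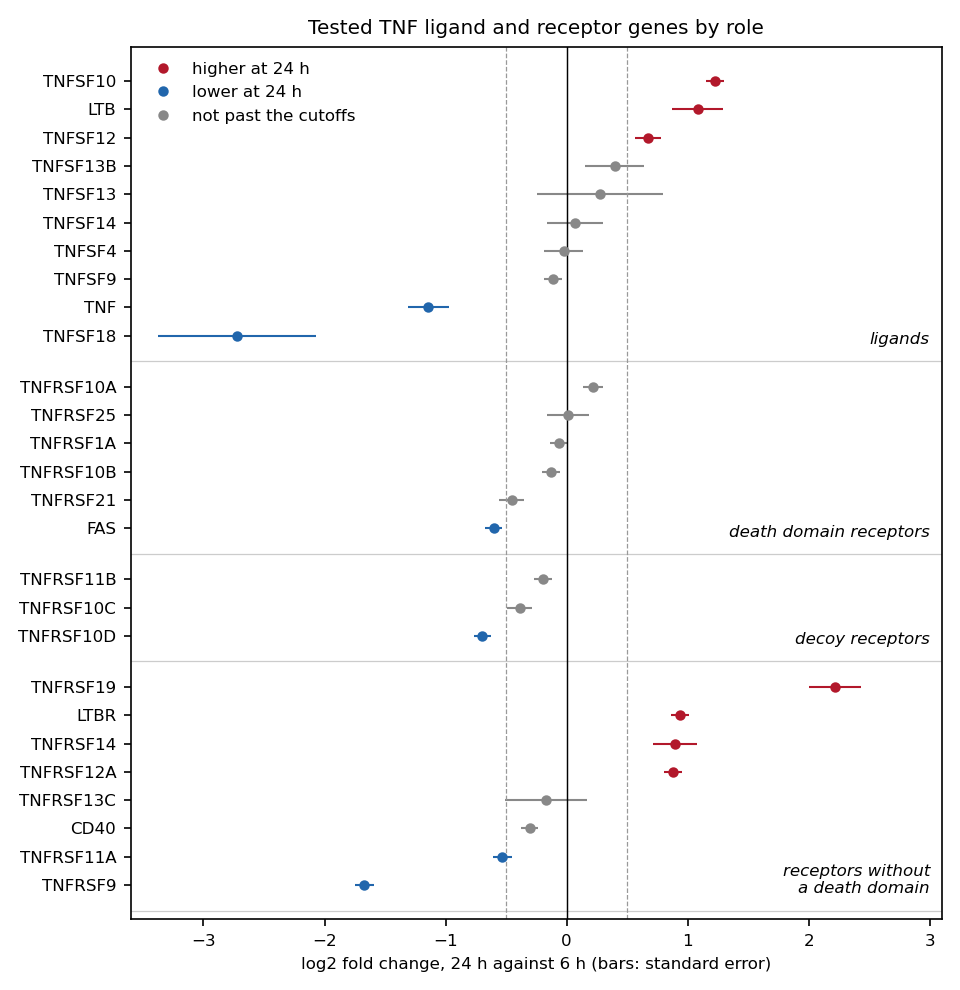
The log2 fold change of each of the 27 tested members, 24 h against 6 h, is plotted on the horizontal axis by role, with bars for the standard error and dashed lines at the fold cutoffs of 0.5. TNFRSF19 lay farthest to the right at 2.22 and TNFSF18 farthest to the left at -2.72, and no death domain or decoy receptor was past the upper cutoff.

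Among the ligands, 3 of the 10 tested genes rose and 2 fell, beside 17.4% and 17.7% of all genes tested. TNFSF10, TRAIL, is the ligand that triggers death through TRAIL-R1 and TRAIL-R2. The TNFSF10 gene (ENSG00000121858, chr3:172223298-172241297 in hg19) had raw counts of 1208 and 1236 at 6 h and of 3068 and 2841 at 24 h. Both later libraries were far above both earlier ones, with no overlap. Its normalized count, the raw count scaled to a common library size with TMM factors, rose from 1245 ± 83.6 to 2911 ± 206 (SD, n = 2 libraries each), a log2 fold change of 1.23 (SE 0.0759, adjusted P = 1.08e-13, edgeR's quasi-likelihood test, P adjusted by the Benjamini-Hochberg method over all genes tested). Of the whole table, 5.02% of all genes tested had a higher log2 fold change.

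The 250 bases before the TNFSF10 start, from RefSeq on GRCh38.p14 (chr3:172523431-172523680, minus strand), are shown because TRAIL had the most counts of the ligands at 24 h and because interferons are known to induce it. Capitals mark 2 matches to GAAANNGAA, the core of interferon response elements, both read on the opposite strand and lying 186 to 178 and 54 to 46 bases before the start.
TNFSF10: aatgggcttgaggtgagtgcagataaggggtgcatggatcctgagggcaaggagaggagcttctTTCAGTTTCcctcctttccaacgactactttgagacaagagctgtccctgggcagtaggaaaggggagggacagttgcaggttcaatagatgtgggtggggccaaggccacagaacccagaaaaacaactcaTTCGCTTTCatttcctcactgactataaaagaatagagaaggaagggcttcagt
These letters were found, on either strand, in 6.88% of 35116 RefSeq promoter windows of this length and in 5 of the 27 members with an entry. A member was counted if any of its windows matched, whereas the percentage is per window, so the 2 are unlike measures. A match is a description of the sequence and not a bound site.

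TNFSF12, TWEAK, is the ligand of FN14. Its raw counts were 258 and 288 at 6 h and 401 and 498 at 24 h. The times did not overlap, although the later libraries stood well apart from each other. The normalized count rose from 277 ± 1.56 to 442 ± 60.2, a log2 fold change of 0.67 (SE 0.109, adjusted P = 5.99e-06 in edgeR's quasi-likelihood test). TNFSF12 (chr17:7452208-7464925, hg19) contains all of the TNFSF12-TNFSF13 read-through gene, which had 0 counts in every library, and shares 3317 bp with TNFSF13, so reads in the shared stretch cannot be assigned with certainty to 1 of them.

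Lymphotoxin beta and TNF lie next to each other on chromosome 6 and moved in opposite directions. LTB anchors lymphotoxin alpha at the surface in the heterotrimer that binds LTBR. LTB (chr6:31548302-31550299, hg19) had raw counts of 33 and 54 at 6 h and of 96 and 94 at 24 h, so the later libraries were nearly equal and the earlier ones were lower and more spread. Its normalized count rose from 43.7 ± 11.4 to 93.6 ± 2.95, a log2 fold change of 1.08 (SE 0.209, adjusted P = 6.04e-05, edgeR's quasi-likelihood test). With 1 library left out in turn, this value ranged from 0.85 to 1.39.

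TNF, the founding cytokine of the family, lies 2.188 kb from LTB. Its raw counts (chr6:31543344-31546113, hg19) were 134 and 147 at 6 h and 60 and 71 at 24 h. Both 24 h libraries held far fewer reads than either 6 h library. The normalized count fell from 143 ± 2.56 to 64.4 ± 6.59, a log2 fold change of -1.15 (SE 0.169, adjusted P = 1.48e-06, edgeR's quasi-likelihood test). Per kilobase of transcript, the ratio of LTB to TNF was 0.463 and 0.69 at 6 h but 3.01 and 2.49 at 24 h, so TNF was the more abundant of the pair at 6 h and LTB at 24 h. The third gene of this cluster, LTA, had 3 and 4 raw counts at 6 h and 0 and 1 at 24 h, too few to be tested.

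The windows of TNF (chr6:31575315-31575564, plus strand) and LTB (chr6:31582425-31582674, minus strand; RefSeq, GRCh38.p14) are shown as those of neighbors with opposite changes. Capitals in LTB mark a match to the NF-kappaB letters GGGANTTTC on the opposite strand, 86 to 78 bases before the start, and a match to the STAT letters TTCNNNGAA, 166 to 158 bases before it. None of the motifs searched was found in the TNF window.
TNF: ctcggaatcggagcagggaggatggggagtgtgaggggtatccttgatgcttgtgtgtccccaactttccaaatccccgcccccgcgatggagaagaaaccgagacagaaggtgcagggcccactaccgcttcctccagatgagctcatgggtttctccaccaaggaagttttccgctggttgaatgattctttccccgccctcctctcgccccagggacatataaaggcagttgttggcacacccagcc
LTB: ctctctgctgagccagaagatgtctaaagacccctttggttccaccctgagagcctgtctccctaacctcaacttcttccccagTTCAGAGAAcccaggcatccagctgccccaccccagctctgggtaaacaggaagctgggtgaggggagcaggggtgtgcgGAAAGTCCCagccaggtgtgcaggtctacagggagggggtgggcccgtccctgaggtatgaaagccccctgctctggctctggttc
The NF-kappaB letters were present in 1.12% of all windows and in 2 of the 27 members with an entry, LTB and TNFRSF9. The STAT letters were present in 6.57% of windows and in 4 members. Members were again counted over all their windows and the percentages per window. No match says only that these letters are not in this window.

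TNFSF18, the ligand of GITR, had the fewest reads of the tested ligands at 24 h. It had 10 and 17 raw counts at 6 h and 3 and 1 at 24 h. The times did not overlap, but all 4 values were small, and the gene passed the filter on low counts only through its 6 h libraries, so its test is conditional on that difference. The summed counts of 27 at 6 h and 4 at 24 h, corrected for library size, give a ratio of 6.96 with an exact 95% interval of 2.43 to 27.4, which covers counting error only. The fitted log2 fold change was -2.72 (SE 0.653, adjusted P = 0.000698, edgeR's quasi-likelihood test). Without the first 24 h library it was -3.65, and without the second 6 h library it was -2.38 and the unadjusted P was 0.0102, no longer past the cutoff.

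The other tested ligands were not called. TNFSF9, the ligand of 4-1BB, was the most abundant ligand per kilobase at 6 h and had 2471 and 2894 raw counts then and 2431 and 2684 at 24 h. Its normalized count was 2722 ± 77.1 at 6 h and 2517 ± 134 at 24 h. The log2 fold change of TNFSF9 was -0.11 (SE 0.0713, adjusted P = 0.167, edgeR's quasi-likelihood test), and both later libraries lay below both earlier ones once normalized. TNFSF4, the OX40 ligand, had 106 and 118 raw counts at 6 h and 119 and 108 at 24 h. The times overlapped, at 113.8 ± 0.863 and 111.8 ± 9.52 normalized counts, with a log2 fold change of -0.03.

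TNFSF14, LIGHT, which binds both LTBR and HVEM, had 43 and 67 raw counts at 6 h and 49 and 70 at 24 h, normalized to 55.3 ± 12.6 and 58.5 ± 13.65, with a log2 fold change of 0.07. TNFSF13B, BAFF, a survival factor of B cells, had 33 and 42 at 6 h and 43 and 59 at 24 h, normalized to 38.0 ± 3.302 and 50.1 ± 10.3, with a log2 fold change of 0.40 (adjusted P = 0.157, edgeR's quasi-likelihood test). TNFSF13, APRIL, had between 5 and 13 counts in every library. Its whole length lies within TNFSF12, so its reads could have been counted there or left out. Of LIGHT, BAFF, and APRIL, BAFF alone had both later libraries above both earlier ones, and by less than the fold cutoff. The other 6 ligands were not tested. FASLG, the ligand of FAS, had between 1 and 3 counts per library, TNFSF15 between 0 and 4, and TNFSF8 3 counts in 1 library of 6 h and 0 elsewhere, while LTA is given above. TNFSF11 (RANKL) and TNFSF12-TNFSF13 were at 0 in all libraries, but the latter lies wholly within TNFSF12, so the same limit holds for it.

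Among the 6 death domain receptors, all tested, none rose and 1 fell, beside 17.4% and 17.7% of all genes. FAS, the receptor of FASLG, had 2138 and 2571 raw counts at 6 h and 1564 and 1628 at 24 h. Both later libraries were below both earlier ones. Its normalized count fell from 2387 ± 112 to 1571 ± 18.4, a log2 fold change of -0.60 (SE 0.0707, adjusted P = 3.09e-08, edgeR's quasi-likelihood test). FAS (chr10:90750414-90775542, hg19) shares 734 bp with ACTA2, a gene with mean normalized counts of 233 at 6 h and 329 at 24 h, and the counting of overlapping reads is not given in the sources used here.

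TNFRSF1A, TNFR1, the main receptor for soluble TNF, had 10233 and 11336 raw counts at 6 h and 10362 and 10894 at 24 h. Its normalized count was 10961 ± 121 at 6 h and 10463 ± 196 at 24 h, with a log2 fold change of -0.07 (SE 0.0739, adjusted P = 0.436, edgeR's quasi-likelihood test). Normalized, the times did not overlap, but the gap was far under the fold cutoff. TNFR1 thus ranked first among members per kilobase of transcript at 6 h and second at 24 h. TNFR2, encoded by TNFRSF1B, was at 0 in all 4 libraries.

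Both death receptors for TRAIL were expressed and neither was past the cutoffs. TNFRSF10B, TRAIL-R2, had 5225 and 6091 raw counts at 6 h and 5309 and 5353 at 24 h, normalized to 5742 ± 144 and 5249 ± 56.6, with a log2 fold change of -0.13 (SE 0.0707). TNFRSF10A, TRAIL-R1, had 598 and 721 at 6 h and 767 and 811 at 24 h, normalized to 669 ± 32.65 and 777 ± 17.7, with a log2 fold change of 0.22 (SE 0.0842, adjusted P = 0.0274, edgeR's quasi-likelihood test). In normalized counts TRAIL-R2 was lower and TRAIL-R1 higher in both later libraries, each by less than the fold cutoff.

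TNFRSF21, DR6, a death domain receptor studied mainly in neurons and lymphocytes, had 388 and 415 raw counts at 6 h and 286 and 320 at 24 h. Both later libraries were lower, at 298 ± 18.7 against 408 ± 14.6 normalized counts, with a log2 fold change of -0.45 (SE 0.103, adjusted P = 0.000414, edgeR's quasi-likelihood test), just under the fold cutoff. Without the second 24 h library it was -0.51, past the cutoff. TNFRSF25, DR3, the receptor of TL1A, had 77 and 99 raw counts at 6 h and 91 and 92 at 24 h, normalized to 89.0 ± 8.38 and 90.1 ± 0.802, and a log2 fold change of 0.01. DR3 shares 220 bp with ESPN, whose log2 fold change was 4.03, and 104 bp with PLEKHG5.

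Of the decoy receptors 3 were tested, 1 of which fell, beside 17.7% of all genes. TNFRSF10D, TRAIL-R4, carries a truncated death domain and binds TRAIL without a death signal. It had 2296 and 2387 raw counts at 6 h and 1528 and 1460 at 24 h. Both pairs of libraries were close to each other and far from the other time. The normalized count fell from 2384 ± 133 to 1472 ± 71.8, a log2 fold change of -0.70 (SE 0.0726, adjusted P = 3.83e-09, edgeR's quasi-likelihood test).

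TNFRSF10C, TRAIL-R3, a decoy held in the membrane by a lipid anchor, had 390 and 513 raw counts at 6 h and 344 and 366 at 24 h, normalized to 457 ± 50.3 and 349 ± 9.51, with a log2 fold change of -0.39 (SE 0.102, adjusted P = 0.00167, edgeR's quasi-likelihood test). TNFRSF11B, osteoprotegerin, a secreted decoy for RANKL and TRAIL, had 1139 and 1372 at 6 h and 1138 and 1115 at 24 h, normalized to 1273 ± 61.3 and 1109 ± 34.5, with a log2 fold change of -0.20 (SE 0.0747, adjusted P = 0.0218). Both decoys were lower in each normalized 24 h library, by less than the fold cutoff. TNFRSF6B, DcR3, the secreted decoy for FASLG, was at 0 throughout, but the whole gene lies within the annotated RTEL1-TNFRSF6B gene, so its reads could have been counted there or left out.

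Set side by side per kilobase, the 2 membrane-bound TRAIL decoys, TRAIL-R3 and TRAIL-R4, summed to 0.608 and 0.582 of the 2 TRAIL death receptors at 6 h and to 0.421 and 0.412 at 24 h. With secreted osteoprotegerin added to the decoys, these values were 0.964 and 0.949 at 6 h and 0.759 and 0.737 at 24 h. TRAIL itself stood at 0.693 and 0.632 of the 2 membrane-bound decoys at 6 h and at 2.41 and 2.24 at 24 h, and at 0.437 and 0.387 against 1.34 and 1.25 with osteoprotegerin added. Each ratio separated the times. They compare RNA levels and were not tested. The 4 TRAIL receptors lie in a row on chromosome 8, with gaps between 15.2 and 26.4 kb, and only TRAIL-R4 was past the cutoffs.

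**Figure D2:**
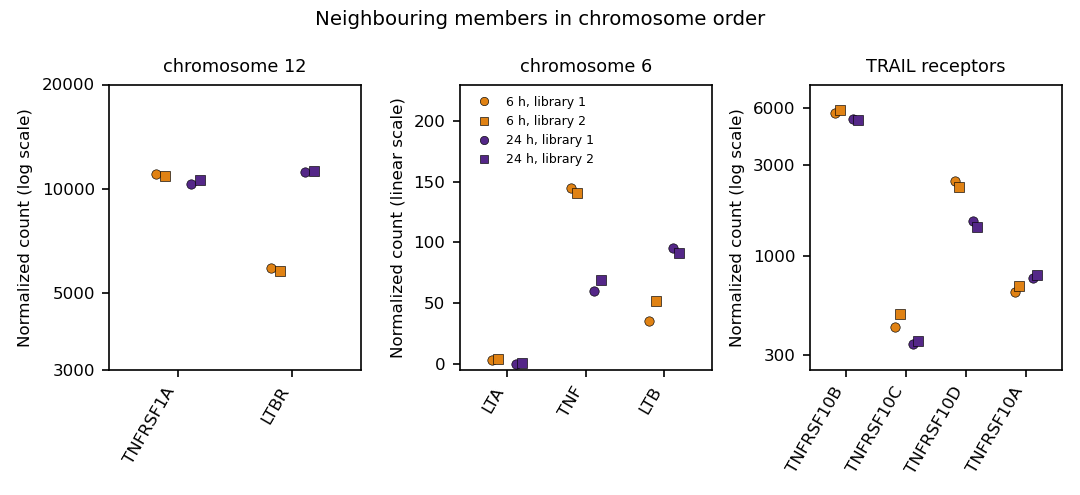
Normalized counts of each library are plotted for members that lie near each other, in chromosome order. The scale is logarithmic for chromosome 12 and the TRAIL receptors and linear for chromosome 6. TNFRSF1A was at 10463 to 10961 on average at both times while LTBR rose from a mean of 5839.9 to 11182, TNF fell while LTB rose, and among the TRAIL receptors TNFRSF10D had the largest gap between times.

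Of the receptors without a death domain, 8 were tested, 4 of which were higher and 2 lower, beside 17.4% and 17.7% of all genes. LTBR, the lymphotoxin beta receptor, activates the noncanonical NF-kappaB pathway. LTBR (ENSG00000111321, chr12:6484211-6500733, hg19) had 5472 and 6017 raw counts at 6 h and 11189 and 11526 at 24 h. The later libraries were far above the earlier ones, and replicates were close. The normalized count rose from 5839.9 ± 95.1 to 11182 ± 48.7, a log2 fold change of 0.94 (SE 0.0733, adjusted P = 1.34e-11, edgeR's quasi-likelihood test). The gene shares 2686 bp with SCNN1A, which had mean normalized counts of 162 at 6 h and 185 at 24 h.

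LTBR and TNFRSF1A are 32.93 kb apart. Per kilobase, the ratio of LTBR to TNFRSF1A was 0.544 and 0.54 at 6 h and rose to 1.1 and 1.08 at 24 h. LTBR thus went from well below TNFRSF1A to slightly above it. Their windows are from RefSeq on GRCh38.p14, with LTBR at chr12:6383912-6384161, plus strand, and TNFRSF1A at chr12:6342077-6342326, minus strand. They are shown as those of nearby members of which 1 changed and 1 was not past the cutoffs. Neither window held any of the motifs searched.
LTBR: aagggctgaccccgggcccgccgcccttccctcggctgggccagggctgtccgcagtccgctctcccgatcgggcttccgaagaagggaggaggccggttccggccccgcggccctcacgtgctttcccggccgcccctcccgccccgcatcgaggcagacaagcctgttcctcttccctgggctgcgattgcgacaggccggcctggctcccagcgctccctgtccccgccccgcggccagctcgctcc
TNFRSF1A: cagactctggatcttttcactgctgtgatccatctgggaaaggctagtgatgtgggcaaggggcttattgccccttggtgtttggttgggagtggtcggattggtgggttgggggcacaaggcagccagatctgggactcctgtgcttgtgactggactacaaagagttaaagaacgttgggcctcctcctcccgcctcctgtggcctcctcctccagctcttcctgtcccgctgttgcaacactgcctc

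TNFRSF12A, FN14, is the small receptor for TWEAK and is often induced by growth factors and injury. Its raw counts (chr16:3068446-3072384, hg19) were 2022 and 2462 at 6 h and 4297 and 4199 at 24 h. No library of one time reached the other. The normalized count rose from 2272 ± 127 to 4184 ± 138, a log2 fold change of 0.88 (SE 0.0725, adjusted P = 3.91e-11, edgeR's quasi-likelihood test), beside the rise of 0.67 in its ligand TNFSF12 described above. Per kilobase, FN14 exceeded TWEAK 11.05-fold and 12.05-fold at 6 h and 15.1-fold and 11.9-fold at 24 h, so this ratio overlapped between times.

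TNFRSF14, HVEM, binds LIGHT and the inhibitory receptor BTLA. It had 50 and 77 raw counts at 6 h and 125 and 118 at 24 h. The earlier libraries were the more spread and lay below both later ones. The normalized count rose from 63.9 ± 14.1 to 119.7 ± 6.86, a log2 fold change of 0.89 (SE 0.183, adjusted P = 0.000129, edgeR's quasi-likelihood test). It ranged from 0.69 to 1.15 when libraries were left out in turn.

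TNFRSF19, TROY, an orphan receptor best known from the developing nervous system and hair follicle and as a Wnt target, had the largest rise among members. Its raw counts (chr13:24144509-24250232, hg19) were 27 and 28 at 6 h and 118 and 147 at 24 h. Each later library had more than 4-fold the reads of each earlier one. The normalized count rose from 28.0 ± 1.62 to 130.3 ± 18.0, a log2 fold change of 2.22 (SE 0.212, adjusted P = 7.44e-10, edgeR's quasi-likelihood test). Of all genes tested, 1.38% had a higher log2 fold change.

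TNFRSF9, 4-1BB, a costimulatory receptor that activated T cells display, had the largest fall of the members with over 100 counts. Its raw counts (ENSG00000049249, chr1:7979907-8000926, hg19) were 1479 and 1587 at 6 h and 470 and 525 at 24 h. The later libraries held far fewer reads than the earlier ones, with no overlap. The normalized count fell from 1559.6 ± 52.4 to 489.6 ± 30.2, a log2 fold change of -1.67 (SE 0.0818, adjusted P = 6.82e-16, edgeR's quasi-likelihood test), and 4.33% of all genes tested had a lower log2 fold change. Among the leukocyte markers, CD2 and CD3E had at most 1 count in any library, while FCER1G had up to 19 and CD14 up to 91. The source of the TNFRSF9 reads was not tested. Per kilobase, the ligand TNFSF9 exceeded TNFRSF9 6.00-fold and 6.55-fold at 6 h and 18.6-fold and 18.4-fold at 24 h. The size of this excess rests on transcript lengths of 1.634 kb for TNFSF9 and 5.872 kb for TNFRSF9. Without division by length, TNFSF9 had mean normalized counts of 2722 at 6 h and 2517 at 24 h.

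The TNFRSF9 window (chr1:7940840-7941089, minus strand; RefSeq, GRCh38.p14) is shown because this receptor fell the most among well-counted members. It held 3 matches, in capitals, in order the STAT letters TTCNNNGAA 187 to 179 bases before the start, the NF-kappaB letters GGGANTTTC 74 to 66 bases before it, and the AP-1 letters TGANTCA 44 to 38 bases before it, none of which overlap.
TNFRSF9: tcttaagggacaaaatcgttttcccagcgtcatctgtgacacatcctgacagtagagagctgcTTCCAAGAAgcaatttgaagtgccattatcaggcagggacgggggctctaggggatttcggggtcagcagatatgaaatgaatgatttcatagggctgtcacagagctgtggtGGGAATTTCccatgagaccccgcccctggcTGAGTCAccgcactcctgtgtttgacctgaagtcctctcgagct
The AP-1 letters were present in 6.57% of all windows and in 4 of the 27 members with an entry. The ETS letters CGGAAGT, the fifth motif searched, were present in 5.69% of windows and in 1 member, FAS. All motifs were read on both strands. Here too a member was counted if any of its windows matched, unlike the percentages, which are per window.

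TNFRSF11A, RANK, is the receptor of RANKL that drives osteoclast formation. It had 987 and 1198 raw counts at 6 h and 765 and 793 at 24 h. The later libraries were close together and below both earlier ones. The normalized count fell from 1107 ± 59.3 to 766.9 ± 6.74, a log2 fold change of -0.53 (SE 0.0794, adjusted P = 1.77e-06, edgeR's quasi-likelihood test). Without the second 6 h library it was -0.47, under the fold cutoff. RANKL itself was at 0 in these cells.

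CD40, the receptor of CD40 ligand on B cells and many epithelial tumors, had 1975 and 2146 raw counts at 6 h and 1736 and 1709 at 24 h, normalized to 2095 ± 51.8 and 1696 ± 47.0. CD40 was lower in both later libraries, but its log2 fold change of -0.30 (SE 0.0699, adjusted P = 0.000444, edgeR's quasi-likelihood test) was under the fold cutoff. TNFRSF13C, the BAFF receptor, had 16 and 31 raw counts at 6 h and 19 and 24 at 24 h, normalized to 23.5 ± 8.82 and 21.1 ± 3.13, and the times overlapped, with a log2 fold change of -0.17. The other 6 receptors of this class were not tested. TNFRSF17 (BCMA) had between 3 and 8 counts per library and overlaps another annotated gene along its whole length. TNFRSF4 (OX40), TNFRSF8 (CD30), and TNFRSF18 (GITR) had at most 4, and TNFRSF1B (TNFR2) and TNFRSF13B (TACI) were at 0.

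**Figure D3:**
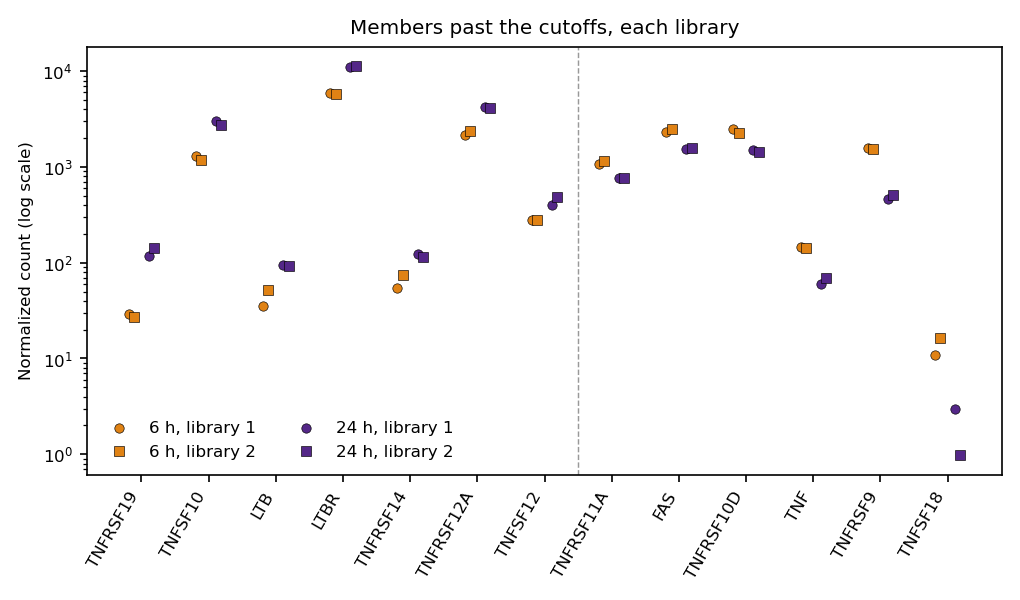
Normalized counts on a log scale are plotted for each library of the 13 members past the cutoffs, ordered by log2 fold change, with members that rose left of the dashed line and members that fell right of it. The libraries of 6 h and 24 h did not overlap in any of them, and TNFSF18 had the fewest counts. The cutoffs favor genes without overlap, and of all genes tested 41% lay above and 40.8% below in the same way.

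Levels per kilobase of the canonical transcript set the order of the members within a time. At 6 h TNFRSF1A stood at 5049 normalized counts per kilobase, LTBR at 2737, TNFRSF12A at 2326, TNFSF9 at 1666, TNFRSF10B at 1436, and CD40 at 1246, each separated from the next in both libraries. TNFRSF10D, TNFSF10, FAS, and TNFRSF11B followed between 674 and 609.9, and neighbors among these 4 overlapped. At 24 h LTBR led at 5239.9, followed by TNFRSF1A at 4819 and TNFRSF12A at 4282, again without overlap. TNFSF10 came next at 1552 and could not be told from TNFSF9 at 1540.4, whose libraries overlapped with it. TNFRSF9 moved from rank 12, at 266, to a level of 83.4 that overlapped with TNFRSF21 at 82.9. The lowest tested members at both times were TNFSF13, TNFRSF13C, and TNFSF18, at 5.99 or less.

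**Figure D4:**
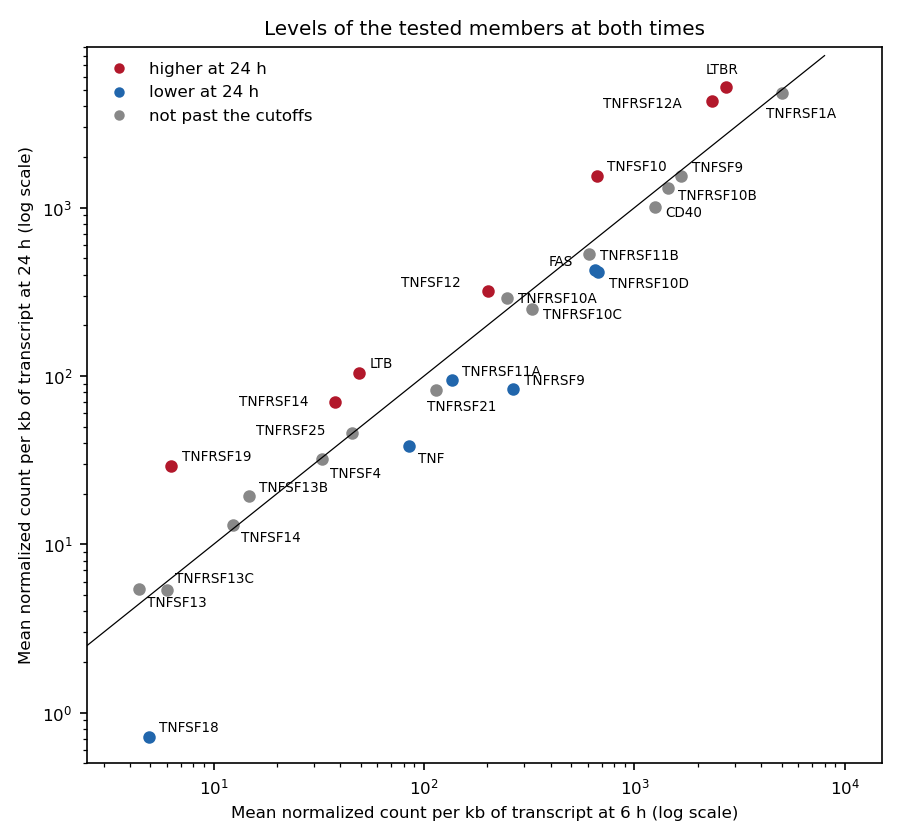
The mean normalized count per kilobase of transcript of each tested member is plotted at 24 h against 6 h, both on log scales, with a line of equal levels. LTBR, TNFRSF12A, and TNFSF10 lay above the line at high levels, TNFRSF9 and TNF below it at lower ones, and TNFRSF1A near it at the top.

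Genes of the superfamily whose symbols fall outside the naming rule were read beside the members. Of 8, 3 were tested, none rose, and 1 fell, beside 17.4% and 17.7% of all genes tested. RELT, a receptor without a death domain, had 188 and 225 raw counts at 6 h and 123 and 138 at 24 h. It was lower in both later libraries, with a log2 fold change of -0.71 (SE 0.136, adjusted P = 5.81e-05, edgeR's quasi-likelihood test). EDA2R, the receptor of the A2 form of ectodysplasin, had 324 and 404 raw counts at 6 h and 436 and 435 at 24 h and a log2 fold change of 0.22 (adjusted P = 0.0583, same test). CD27, a costimulatory receptor of lymphocytes with between 8 and 14 counts per library, had one of -0.60 (adjusted P = 0.236, same test). CD70, EDA, and NGFR had at most 13 counts and were not tested. CD40LG, the ligand of CD40, and EDAR were at 0.

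Of 6 listed genes that release the ligands or control their release, 5 were tested, none rose, and 1 fell. The shares of all genes tested were 17.4% and 17.7%. ADAM17, the protease that cuts TNF and TNFR1 from the surface, had 6318 and 6782 raw counts at 6 h and 3678 and 3627 at 24 h. It was lower in both later libraries, with a log2 fold change of -0.89 (SE 0.0716, adjusted P = 2.47e-11, edgeR's quasi-likelihood test). RHBDF1 and RHBDF2, the iRhoms that carry ADAM17 to the surface, had log2 fold changes of 0.29 and 0.36, and ADAM10 one of 0.43, all under the fold cutoff. FURIN, which matures ADAM17 and several ligands, had one of -0.23. TIMP3, an inhibitor of ADAM17, was at 0. Without the first 6 h library ADAM10 was at 0.55, past the cutoffs.

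Below the receptors, 34 of 36 listed signaling genes were tested, 3 of which rose and 3 of which fell, 8.82% in each direction against 17.4% and 17.7% of all genes tested. Their median log2 fold change was -0.00076, beside 0.0029 for all genes. TRAF5, an adaptor of LTBR and CD40 among others, had 298 and 325 raw counts at 6 h and 609 and 645 at 24 h, and it rose by 0.96 on the log2 scale, from 317 ± 6.996 to 617 ± 14.8 normalized counts. MAP3K5, the stress kinase ASK1 that TRAF2 engages, rose by 0.68, and RNF31, the catalytic subunit of the linear ubiquitin ligase, by 0.57, which was 0.48 without the first 6 h library.

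TNFAIP3, A20, the deubiquitinase that ends TNFR1 signaling, had 2588 and 2849 raw counts at 6 h and 1103 and 1083 at 24 h, and it fell by 1.36 (SE 0.0714). TRAF1, an adaptor that NF-kappaB induces, had 128 and 194 at 6 h and 78 and 58 at 24 h, and it fell by 1.28 (SE 0.184). CYLD, another deubiquitinase of the pathway, fell by 0.62. The largest adjusted P of these 6 genes was 1.92e-05 in edgeR's quasi-likelihood test. The adaptors TRADD and FADD, the initiator CASP8, its inhibitor CFLAR, and the kinase RIPK1 had absolute log2 fold changes of at most 0.23, under the fold cutoff. RIPK3 was at 0.

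Genes that TNF classically induces through NF-kappaB were tested in all 22 cases listed, of which 2 rose and 8 fell, 9.09% and 36.4%. The background was again 17.4% and 17.7%, and the median log2 fold change of the list was -0.33. TNFAIP3, TRAF1, and BIRC3 are in both lists. CCL20, a chemokine for CCR6-bearing lymphocytes, had 255 and 232 raw counts at 6 h and 9 and 3 at 24 h. It passed the filter on low counts only through its 6 h libraries. Its test, and its place among the 8 that fell, are therefore conditional on that difference. The fitted log2 fold change of CCL20 was -5.36 (SE 0.274), and it was -6.35 without the first 24 h library and -4.76 without the second. VCAM1, an adhesion molecule for leukocytes, had 45 and 59 at 6 h and 16 and 22 at 24 h, and fell by 1.49. CXCL8, interleukin 8, listed as IL8, fell by 1.40, from 33438 ± 3503 to 12659 ± 1391 normalized counts. All of these were lower in both later libraries.

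The chemokine CCL2 and the cytokine IL6, in contrast, were higher in both later libraries. CCL2 had 197 and 216 raw counts at 6 h and 540 and 588 at 24 h, for a log2 fold change of 1.40 (SE 0.104). IL6 had 798 and 981 at 6 h and 2031 and 1920 at 24 h, for a log2 fold change of 1.11 (SE 0.0756). The largest adjusted P among CCL20, VCAM1, CXCL8, CCL2, and IL6 was 4.34e-05, for VCAM1, in edgeR's quasi-likelihood test. BIRC3, the caspase and TRAF regulator cIAP2, did not pass the cutoffs, with a log2 fold change of 0.08.

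**Figure D5:**
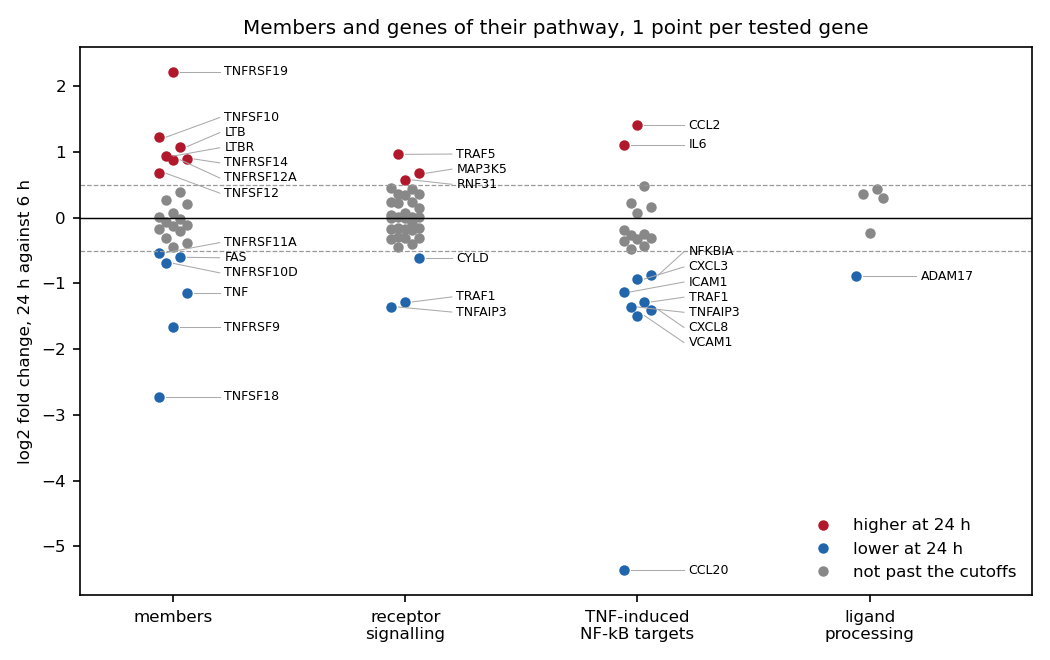
The log2 fold change of every tested gene, 24 h against 6 h, is plotted for the members, the receptor signaling genes, the TNF-induced NF-kappaB targets, and the ligand processing genes, with names for genes past the cutoffs and dashed lines at the fold cutoffs of 0.5. Members spread to both sides, 28 of the 34 signaling genes stayed between the cutoffs, and 8 of the 22 targets lay below the lower one.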

How the data were processed

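RNA from TPC1 cells treated with BLU6864 was sequenced in 2 libraries at each of 2 times. Per the labels, TruSeq libraries were run as single-end reads, whereas the methods state paired-end sequencing. Reads were aligned with STAR (2.3 in the submitters' processing notes, a later version in the methods) to hg19. The counting program, annotation, and strand setting are not given in the sources used here, so reads in overlapping genes are uncertain. The authors deposited raw counts per gene, which were tested here. They also deposited a normalized signal, the count divided by a library's DESeq2 size factor, with its mean over libraries, and neither was needed. Their deposited fold changes and p-values were not used. The number of columns of single samples left unused was 0.

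The counts entered edgeR 4.0.16, run in R 4.3.3 (TMM, filterByExpr, glmQLFit, glmQLFTest) with time as the only factor. The filter kept 12876 of 20372 genes and 99.97% of counts, the biological coefficient of variation was 0.0521, and P was adjusted over all genes tested by the Benjamini-Hochberg method. The standard error is the absolute log2 fold change divided by the square root of F. A gene was called at an absolute log2 fold change over 0.5 and P under 0.01. The methods give these sizes for falls only, with DESeq2, and they were extended here to rises. Levels per kilobase used the canonical transcript of GENCODE v44, matched by Ensembl identifier for 40 members. The annotation used for counting is not given, so comparisons of levels between genes rest on these lengths. Promoter windows came from a prepared set of RefSeq windows, which had an entry for 27 of the 40 members. CD40, TNFRSF10A, TNFRSF10B, TNFRSF10C, TNFRSF10D, TNFRSF11B, TNFRSF12A, TNFRSF13C, TNFRSF17, TNFRSF4, TNFSF12, TNFSF12-TNFSF13, and TNFSF8 had none in that set. The gap is one of the set and says nothing about RefSeq itself. Positions in hg19 and GRCh38.p14 were not mixed.

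Every member was described, with counts of each library for members past the cutoffs or with a mean raw count of at least 20. All tested genes of the ligand processing list and of the superfamily genes outside the rule were named. From the signaling and target lists up to 4 rises and 4 falls were named, and any further gene was picked with its values in view. The members and lists were chosen with earlier results of these data known, so no set test was run and no P was adjusted over a list alone. MAP3K14 and PECAM1 were not analysed here, and the values of some single marker genes are not reported here. Alternatives were DESeq2 1.42.0, library size alone, upper quartile scaling, other filters, a replicate block, leaving out each library, and calls by an adjusted P under 0.05. The procedure was checked on simulated counts. Figures used matplotlib 3.10.9 with Python 3.11.15.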

Additional observations from a re-analysis of the deposited data

How the results depend on the processing

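The 7 members higher at 24 h were the same genes with DESeq2, library size alone, upper quartile scaling, either filter, the replicate block, and each library left out. The lower members numbered between 4 and 7 with 1 library left out and 5 with at least 10 counts in every library, where neither TNFSF18 nor the target gene CCL20 was tested. With an adjusted P under 0.05 and no fold cutoff, 10 members, 14 target genes, and 11 signaling genes were lower, 8 members and 10 signaling genes were higher, and 4247 genes were higher and 4196 lower over the whole table, where fewer conditions have to be met. Without a filter, 35 members could be tested and their median log2 fold change was -0.17. Directions turned only in members not past the cutoffs. TNFSF4 was at 0.0033 with upper quartile scaling and TNFRSF25 at -0.0304 with library size alone. With 1 library left out, the log2 fold change ranged from -0.25 to 0.85 for TNFSF13, from -0.49 to 0.29 for TNFRSF13C, from -0.19 to 0.33 for TNFSF14, from -0.11 to 0.0648 for TNFSF4, and from -0.0761 to 0.12 for TNFRSF25. The cause was not tested.

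Deviations of libraries with the same number had a correlation of 0.0691 over all genes tested. With 2 libraries per time this is a single comparison, which cannot decide whether those libraries were handled together. With the replicate number as a replicate block, 7 members were higher and 6 lower, and over all genes 2283 and 2313, against 2238 and 2278 without it. With 2 libraries per time, neither outliers nor independent cultures could be assessed. Members that failed the filter on low counts were beyond this depth, and TNFSF18 and TNFSF13 were tested near that limit.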
